A study of Mus musculus with 12 samples.

Results

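Transcripts of 9 TNF receptor superfamily members were followed in expanded mouse CD8+ T cells: Fas, Tnfrsf10b, Tnfrsf1a, Tnfrsf1b, Tnfrsf4, Tnfrsf9, Tnfrsf18, Tnfrsf14 and Cd27. The genes were taken by symbol from the gene annotation in the authors' deposited table and joined by gene identifier to the count table. They are 9 of the 56748 genes counted, and all 9 were among the 15688 genes that passed the filter on low counts. The study asked how expanding T cells with dichloroacetate (DCA), an inhibitor of the pyruvate dehydrogenase kinases, alters them.

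Each of 6 T cell receptor transgenic mice gave 1 untreated and 1 DCA library, 3 mice in each of 2 experiments, so there were 4 groups of 3 libraries. In all groups whole spleen cells were stimulated with peptide for 24 hours (250 nM SIINFEKL for OT-1 cells, 1 uM gp100 for pmel-1 cells) and then expanded for 6 days in medium with 10% serum and IL-2. The DCA groups received 5 mM DCA during that expansion and the untreated groups none, and CD8+ cells were sorted on day 7. The strain and genotype labels of experiment 1 read OT-1 and C57BL/6-Tg(TcraTcrb)1100Mjb/J, and those of experiment 2 read Pmel-1 and the transgene Tg(TcraTcrb)8Rest/J on a B6.Cg-Thy1a/Cy background. The titles say Pmel-1 in both experiments, which goes against the strain labels of experiment 1. Each experiment thus holds T cells of 1 transgenic receptor, grown in culture among other spleen cells until the sort. The age of the mice is not given in the sources used here.

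Receptors of the TNF superfamily are membrane proteins that cluster when a ligand of the matching TNF family binds, and then recruit adaptor proteins to their cytoplasmic tails. One class carries a death domain: Fas and Tnfrsf10b (DR5, the receptor for TRAIL) can assemble a complex with the adaptor FADD and caspase-8 that kills the cell, and Tnfrsf1a (the first TNF receptor) binds the adaptor TRADD. The other class binds TRAF adaptors and feeds NF-kB signalling: Tnfrsf9 (4-1BB), Tnfrsf4 (OX40), Tnfrsf18 (GITR) and Cd27 are costimulatory receptors of T cells, and Tnfrsf1b is the second TNF receptor. Tnfrsf14 (HVEM) binds the ligand LIGHT and also the inhibitory receptor BTLA. Activated CD8+ T cells are known to express 4-1BB, OX40, GITR and Fas, and Fas and Tnfrsf10b are known targets of the transcription factor p53.

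The genes lie on 4 chromosomes in RefSeq's annotation. Fas is on chromosome 19 and Tnfrsf10b on chromosome 14. Tnfrsf1a and Cd27 are on chromosome 6 with 3 protein-coding genes between them, one of which is Ltbr, the lymphotoxin beta receptor. The other 5 are on chromosome 4, where Tnfrsf4 and Tnfrsf18 are immediate neighbours with 0 protein-coding genes between them. RefSeq's promoter table (build GRCm38.p6) held an entry for 8 of the 9 genes, and Tnfrsf10b was not matched. Fas, a death receptor, and Tnfrsf9, a costimulatory receptor, had log2 fold changes of opposite sign with DCA over both experiments. The Tnfrsf9 call was kept in only 7 of 20 other settings. The 250 bases before the annotated start are printed for Fas and for both annotated starts of Tnfrsf9. All 3 are on the plus strand, at chr19:34290409-34290658, chr4:150919905-150920154 and chr4:150927749-150927998, and read 5′ to 3′. Capitals mark matches to an AP-1 motif (TGANTCA), a GC box (GGGCGG) or the NF-kB consensus, searched on both strands.
Fas: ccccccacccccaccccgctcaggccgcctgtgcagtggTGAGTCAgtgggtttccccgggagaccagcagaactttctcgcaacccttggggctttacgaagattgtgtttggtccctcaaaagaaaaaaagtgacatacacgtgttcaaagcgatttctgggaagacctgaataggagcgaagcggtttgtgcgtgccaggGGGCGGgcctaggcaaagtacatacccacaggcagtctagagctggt
Tnfrsf9 start 1: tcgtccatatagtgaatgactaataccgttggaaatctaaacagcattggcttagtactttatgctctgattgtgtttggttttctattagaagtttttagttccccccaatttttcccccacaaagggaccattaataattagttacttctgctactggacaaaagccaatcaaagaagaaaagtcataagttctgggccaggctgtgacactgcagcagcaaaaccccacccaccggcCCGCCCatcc
Tnfrsf9 start 2: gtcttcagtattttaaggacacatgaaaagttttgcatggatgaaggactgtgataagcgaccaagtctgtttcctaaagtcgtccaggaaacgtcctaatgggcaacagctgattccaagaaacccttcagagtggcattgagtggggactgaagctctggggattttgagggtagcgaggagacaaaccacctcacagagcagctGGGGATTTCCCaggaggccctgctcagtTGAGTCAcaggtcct
In the Fas window the AP-1 match lies 211 to 205 bases and the GC box 47 to 42 bases before the start. The first Tnfrsf9 window has a GC box on the opposite strand, 10 to 5 bases before its start. In the second Tnfrsf9 window the capitals cover a pair of overlapping NF-kB matches, at 43 to 34 and at 42 to 33 bases, and an AP-1 match 15 to 9 bases before the start. Among 32851 such windows of the table, 6.75% hold the AP-1 motif, 32.7% the GC box and 2.7% the NF-kB consensus. The p53 half-site consensus is in 7.13% of all windows and in none of the windows found for the 8 genes. Bases outside these windows were not searched and Tnfrsf10b has no window, so this does not show that the genes lack such sites. These matches describe the letters in a window and are not binding sites.

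Total counts per library were 28039699 to 41051066. The labelled cell type was checked against marker genes, with levels as CPM (counts scaled to each library's total): the 8 CD8 T cell markers summed to 4562 to 5418 CPM in untreated and 5344 to 5955 CPM in DCA cells of experiment 1. In experiment 2 they summed to 5957 to 6674 CPM in untreated and 5169 to 5471 CPM in DCA cells, without overlap. The 4 CD4 and regulatory T cell markers summed to 48.1 to 68.5 against 68.7 to 101 CPM with DCA in experiment 1 and to 175 to 211 against 182 to 213 CPM in experiment 2. Most of that sum was Ctla4, which activated CD8 T cells also express and which was called higher with DCA in experiment 1 (0.50, adjusted p = 0.0285). Cd4 reached at most 0.638 CPM and Foxp3 was at 0 in 11 of 12 libraries. Summed B cell markers were higher with DCA, at 12.6 to 18.2 against 27.3 to 38.2 CPM in experiment 1 and 24.0 to 26.9 against 33.3 to 38.4 CPM in experiment 2. Nearly all of that sum was Cd79b, and Ms4a1 and Pax5 were each at 0 in 10 of 12 libraries. Myeloid, dendritic and erythroid or platelet marker sums stayed at or below 3.23, 1.58 and 0.894 CPM, and the stroma sum of 11.9 to 54.7 CPM was nearly all Pecam1. The NK sum was mostly Nkg7, which CD8 T cells also express, and Ncr1 was at 0 in 9 of 12 libraries. Mitochondrial counts were 1.01% to 1.14% of the total in untreated and 1.32% to 1.58% in DCA cells of experiment 1, and 2.11% to 2.85% in experiment 2. The part of these shifts in the results on the receptors was not tested. In these bulk samples, fewer cells of a type and less RNA per cell cannot be told apart.

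The 9 transcripts spanned a wide range of levels. As TMM-scaled CPM divided by gene length in kilobases (RPKM, with the length in the authors' deposited table), 3 costimulatory receptors stood at the top in every group. Tnfrsf9 was first, with group means of 250 to 569 RPKM. Tnfrsf4 followed at 163 to 220 RPKM and Tnfrsf18 at 145 to 187 RPKM, and the libraries of these neighbouring genes overlapped in all 4 groups. In DCA cells of experiment 1 the Tnfrsf9 and Tnfrsf4 libraries overlapped as well. Cd27, the fourth in every group, ran from 17.3 to 28.6 RPKM and overlapped with no neighbour in the order. Fas (2.93 to 19.6 RPKM), Tnfrsf1b (3.35 to 8.83 RPKM) and Tnfrsf1a (1.70 to 5.73 RPKM) formed the middle. In untreated cells of both experiments the Fas and Tnfrsf1b libraries overlapped, whereas in DCA cells of both experiments all 3 Fas libraries lay above all 3 Tnfrsf1b libraries. Tnfrsf10b (0.661 to 1.47 RPKM) and Tnfrsf14 (0.799 to 1.51 RPKM) were the lowest and overlapped in 3 of the 4 groups.

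**Figure D1:**
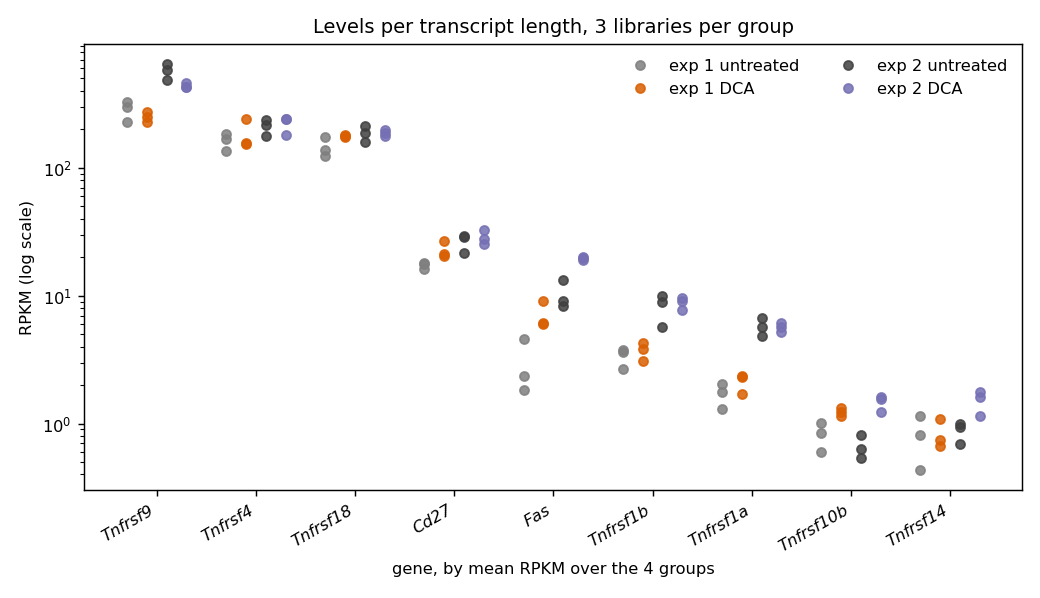
RPKM (log axis) of each of the 9 receptor transcripts in the 12 libraries, by group, 1 point per library. Tnfrsf9, Tnfrsf4 and Tnfrsf18 lie highest in every group, and Tnfrsf10b and Tnfrsf14 lie lowest.

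DCA cells held more transcript of both death receptors Fas and Tnfrsf10b than untreated cells and less of the costimulatory receptor Tnfrsf9. Over both experiments Fas was 2.14-fold and Tnfrsf10b 1.82-fold higher, in 6 of 6 mice each, and Tnfrsf9 was at 0.823 of the untreated level. The Tnfrsf9 call was kept in only 7 of 20 other settings and was lost with a term per mouse (adjusted p = 0.058). These 3 of 9 genes passed an adjusted p of 0.05 (edgeR's quasi-likelihood test with Benjamini-Hochberg adjustment over all genes tested), where 16.8% of all tested genes did. Of all tested genes 7.01% were called higher and 9.8% lower. With another scaling (cyclic loess) the numbers of all genes called higher and lower were 1231 and 1041, against 1100 and 1538 here. The median log2 fold change was 0.14 over the 9 members and -0.02 over all tested genes, and 8 of the 9 members were above 0. The direction was shared by all 6 mice for Fas and Tnfrsf10b, 2 of 9 members, against 19.1% of tested genes.

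**Figure D2:**
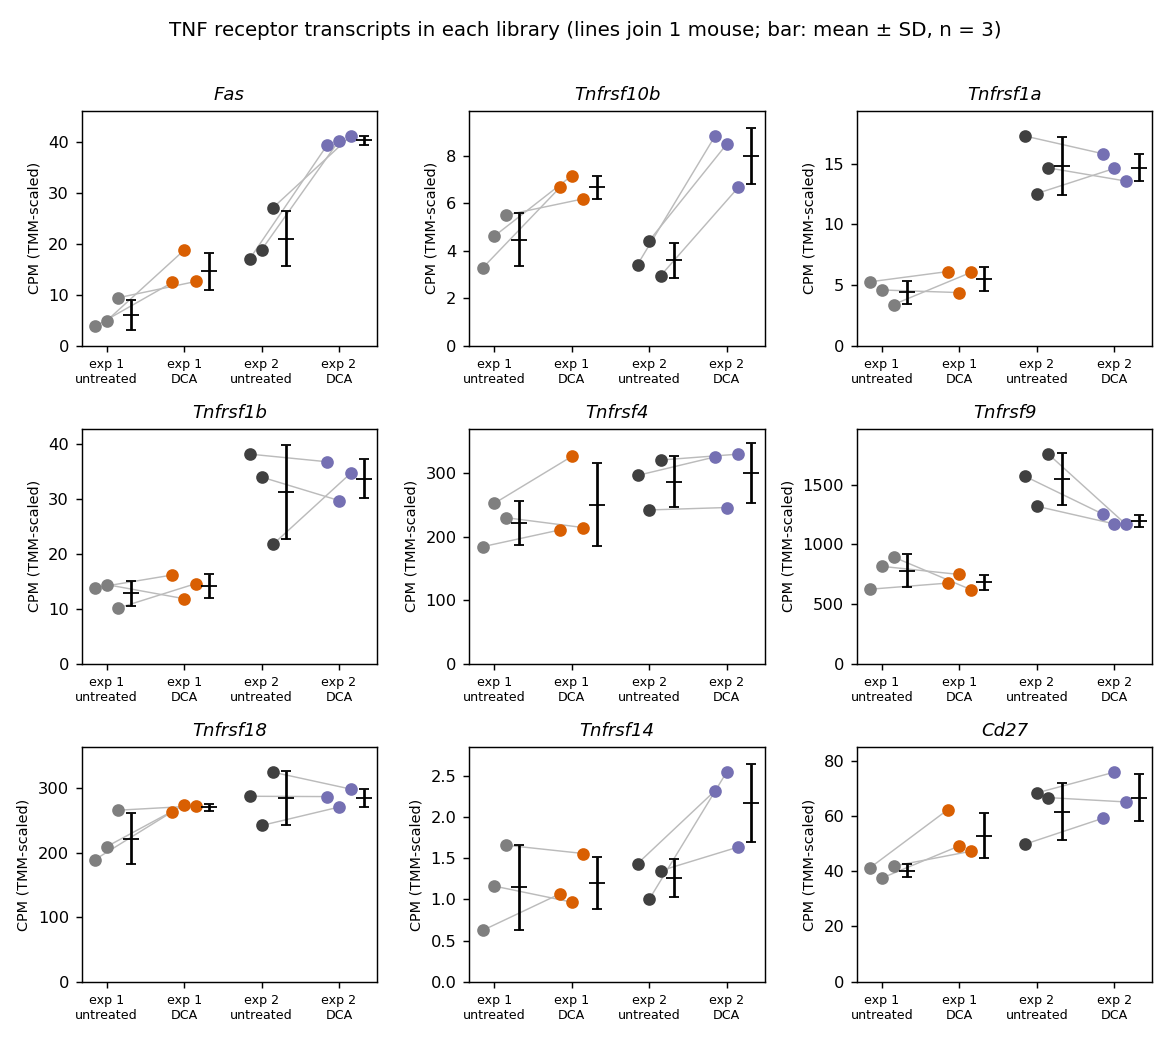
TMM-scaled CPM of each receptor transcript in untreated and DCA cells, by group, with lines joining the libraries of the same mouse and bars for the mean ± SD (n = 3). Fas and Tnfrsf10b lines run upward in all 6 mice, and Tnfrsf9 lines run downward in 5 of 6.

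Fas (ENSMUSG00000024778.14), which triggers apoptosis when bound by Fas ligand, was at 3.78, 4.89 and 9.43 CPM (TMM-scaled, as are all CPM values of members) in untreated cells of experiment 1. The DCA libraries of the same mice were at 12.4, 18.8 and 12.6 CPM. All 3 DCA libraries lay above all 3 untreated ones. In experiment 2 Fas was at 17.1, 18.9 and 27.2 CPM in untreated cells and at 39.6, 40.4 and 41.3 CPM in DCA cells, again without overlap. The log2 fold change over both experiments was 1.10 (SE 0.20, 95% interval 0.68 to 1.52, adjusted p = 0.00189). Per mouse the log2 difference ran from 0.42 to 1.94, both ends being mice of experiment 1. The mouse with the smallest difference was also the one with the highest untreated Fas level of that experiment. Within experiment 1 the log2 fold change was 1.28 (SE 0.28, adjusted p = 0.0073), and Fas was the 1 member of 9 called there, against 16.7% of all genes (5.67% higher and 11% lower). Within experiment 2 it was 0.94 (SE 0.27, adjusted p = 0.0621), above the threshold although the groups did not overlap. In the authors' deposited table the log2 fold change of Fas over both experiments is 1.10 with a false discovery rate of 0.00317.

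Tnfrsf10b (ENSMUSG00000022074.7), the death receptor for TRAIL, was a low transcript with counts from 84 upward per library. In experiment 1 it was at 3.28, 4.62 and 5.51 CPM without DCA and at 6.68, 7.17 and 6.20 CPM with DCA. In experiment 2 the values were 3.42, 4.43 and 2.96 CPM without DCA and 8.85, 8.50 and 6.68 CPM with DCA. No untreated library reached the lowest DCA library of its experiment. The log2 fold change over both experiments was 0.87 (SE 0.18, 95% interval 0.48 to 1.25, adjusted p = 0.00443). The per-mouse differences ran from 0.17 to 1.37, and the lowest came from the same mouse as the lowest for Fas. Within experiment 2 Tnfrsf10b rose by 1.15 (SE 0.24, adjusted p = 0.0146) and was the 1 member of 9 called there, against 4.57% of all genes (2.37% higher and 2.2% lower). That call was lost in 4 of 12 fits that each left out 1 library: without untreated replicate 1 or 3 or DCA replicate 1 or 2 of experiment 2 the adjusted p was 0.0558, 0.0589, 0.0721 and 0.0691. Within experiment 1 the log2 fold change was 0.58 (SE 0.24, adjusted p = 0.111). In the authors' deposited table Tnfrsf10b has a log2 fold change of 0.87 and a false discovery rate of 0.00893.

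Groups without overlap were common among all genes, at 29.3% in experiment 1 and 30.2% in experiment 2. Among the members, 3 of 9 (Fas, Tnfrsf10b and Cd27) had no overlap between DCA and untreated libraries in experiment 1. In experiment 2 there were 4 of 9: Fas, Tnfrsf10b, Tnfrsf9 and Tnfrsf14. Fas and Tnfrsf10b were the 2 without overlap in both experiments, in the same direction, against 11.1% of all genes. Among the 9 transcripts, Fas was more abundant than Tnfrsf10b in all 12 libraries. The ratio of their RPKM values was 2.80 to 4.52 in untreated cells and 4.92 to 6.93 in DCA cells of experiment 1. In experiment 2 the ratio was 11.3 to 24.3 without and 11.8 to 16.3 with DCA, which overlap.

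Tnfrsf9 (ENSMUSG00000028965.14), the costimulatory receptor 4-1BB, was at 624, 815 and 893 CPM in untreated cells of experiment 1 and at 675, 747 and 620 CPM in DCA cells. These groups overlapped, and mouse 1 was slightly higher with DCA. In experiment 2 Tnfrsf9 was at 1569, 1319 and 1755 CPM without and at 1254, 1171 and 1168 CPM with DCA, without overlap. Over both experiments Tnfrsf9 fell by 0.28 on the log2 scale (SE 0.09, 95% interval -0.47 to -0.09, adjusted p = 0.0388), with lower values in 5 of 6 mice. The size of this difference is ordinary, since 43.7% of tested genes had a larger absolute log2 fold change. The call was not kept under several other settings. With a term per mouse, which pairs the libraries, the log2 fold change was -0.27 and the adjusted p 0.058, and with cyclic loess scaling they were -0.11 and 0.485. Leaving out 1 library at a time ended the call in 9 of 12 fits (adjusted p 0.00574 to 0.102); it held only without untreated replicate 1 or DCA replicate 2 of experiment 1 or untreated replicate 2 of experiment 2. In the authors' deposited table Tnfrsf9 has a log2 fold change of -0.28 and a false discovery rate of 0.126. Within the experiments the log2 fold changes were -0.19 (adjusted p = 0.317) and -0.37 (adjusted p = 0.104). In experiment 2, 5 of 8 CD8 T cell markers were called lower with DCA (Cd2, Cd3d, Cd3g, Cd8a and Cd8b1, median of the 8 -0.34), against 2.2% of all genes. In experiment 1, 1 of the 8 was called higher and 1 lower (median 0.10), against 5.67% and 11% of all genes. The part of these markers in the Tnfrsf9 value was not tested.

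A measure that does not depend on scaling between libraries is the share of each receptor in the summed RPKM of all 9. It was computed after the values had been seen and is given without a test, and a share also moves when the other members do. Tnfrsf9 made up 44.5%, 46.3% and 46.9% of the sum in untreated cells of experiment 1 and 40.2%, 37.6% and 38.1% in DCA cells. In experiment 2 its share was 56.0%, 55.4% and 56.2% without and 48.4%, 50.2% and 46.1% with DCA. In mouse 1 of experiment 1 the share was lower although the log2 difference of Tnfrsf9 itself was 0.11, beside 0.19 for Tnfrsf4, 0.48 for Tnfrsf18 and 0.59 for Cd27. The lower share is therefore no separate support for a fall of Tnfrsf9. The share of Fas, small in all libraries, in experiment 1 was 0.357% to 0.654% in untreated and 0.979% to 1.25% in DCA libraries. For experiment 2 the Fas share was 0.807% to 1.15% without and 2.02% to 2.28% with DCA.

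**Figure D3:**
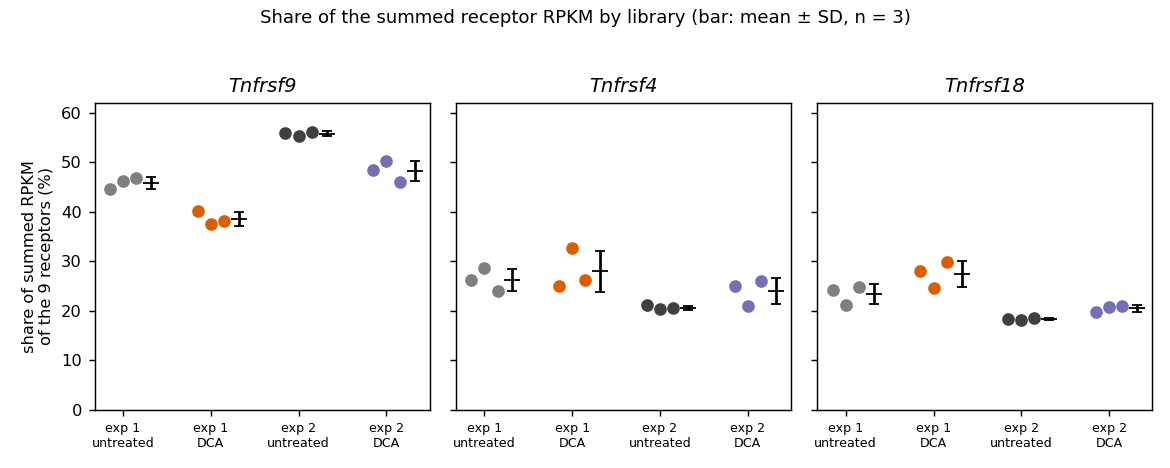
Share in percent of the summed RPKM of the 9 receptors taken by Tnfrsf9, Tnfrsf4 and Tnfrsf18, by group, 1 point per library with bars for the mean ± SD (n = 3). The Tnfrsf9 share is 44.5% to 46.9% in untreated and 37.6% to 40.2% in DCA libraries of experiment 1, and 55.4% to 56.2% and 46.1% to 50.2% in experiment 2.

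The remaining 6 receptors did not pass the test with DCA over both experiments. Tnfrsf1a (ENSMUSG00000030341.18), the TNF receptor with a death domain, had a log2 fold change of 0.14 (95% interval -0.17 to 0.46, adjusted p = 0.573). In experiment 1 its untreated libraries were at 3.39 to 5.27 CPM and its DCA libraries at 4.37 to 6.11 CPM, and in experiment 2 at 12.6 to 17.3 and 13.6 to 15.8 CPM. Tnfrsf1b (ENSMUSG00000028599.11), the TNF receptor without a death domain, had a log2 fold change of 0.13 (95% interval -0.17 to 0.42, adjusted p = 0.598). It was higher with DCA in 3 of 6 mice, so the mice were evenly split. In RPKM, Tnfrsf1b exceeded Tnfrsf1a in all 12 libraries, by a ratio of 1.01 to 2.13.

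Tnfrsf4 (ENSMUSG00000029075.7), the receptor OX40, had a log2 fold change of 0.12 with DCA (95% interval -0.14 to 0.38, adjusted p = 0.558). One DCA library of experiment 1, replicate 2, stood at 326 CPM beside 211 and 214 CPM for the others, and the untreated cells of that mouse were also the highest of their group at 253 CPM. Tnfrsf18 (ENSMUSG00000041954.19), the receptor GITR, had a log2 fold change of 0.14 (95% interval -0.05 to 0.34, adjusted p = 0.311). Its untreated libraries of experiment 1 were at 189, 209 and 266 CPM and its DCA libraries at 263, 274 and 272 CPM, so 1 untreated library overlapped. Within experiment 1 the log2 fold change was 0.29 (adjusted p = 0.112). It ran from 0.18 to 0.44 when 1 library was left out and passed in 1 of those 12 fits. That fit, with 0.44 (adjusted p = 0.0125), left out the overlapping library, untreated replicate 3, so its larger value follows from the choice of library. In experiment 2 the DCA effect on Tnfrsf18 was 0.00 (95% interval -0.25 to 0.25).

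Cd27 (ENSMUSG00000030336.15), a receptor of naive and memory T cells that binds CD70, was at 41.3, 37.5 and 41.8 CPM in untreated cells of experiment 1. With DCA it was at 62.2, 49.2 and 47.2 CPM, all above the untreated libraries. In experiment 2 the values were 49.8, 68.3 and 66.6 CPM without and 59.1, 75.8 and 65.1 CPM with DCA, which overlap. The log2 fold change over both experiments was 0.25 (95% interval 0.03 to 0.48, unadjusted p = 0.0298, adjusted p = 0.118), with higher values in 5 of 6 mice. Within experiment 1 it was 0.39 (adjusted p = 0.0731), and with a term per mouse it was 0.39 with an adjusted p of 0.0403, past the threshold. Tnfrsf14 (ENSMUSG00000042333.17), the receptor HVEM, was the least counted, with as few as 16 counts in a library. Its log2 fold change over both experiments was 0.43 with a wide 95% interval of -0.21 to 1.06 (adjusted p = 0.372). In experiment 2 its DCA libraries (2.32, 2.55 and 1.64 CPM) lay above the untreated ones (1.44, 1.00 and 1.35 CPM), with a log2 fold change of 0.78 (adjusted p = 0.334).

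**Figure D4:**
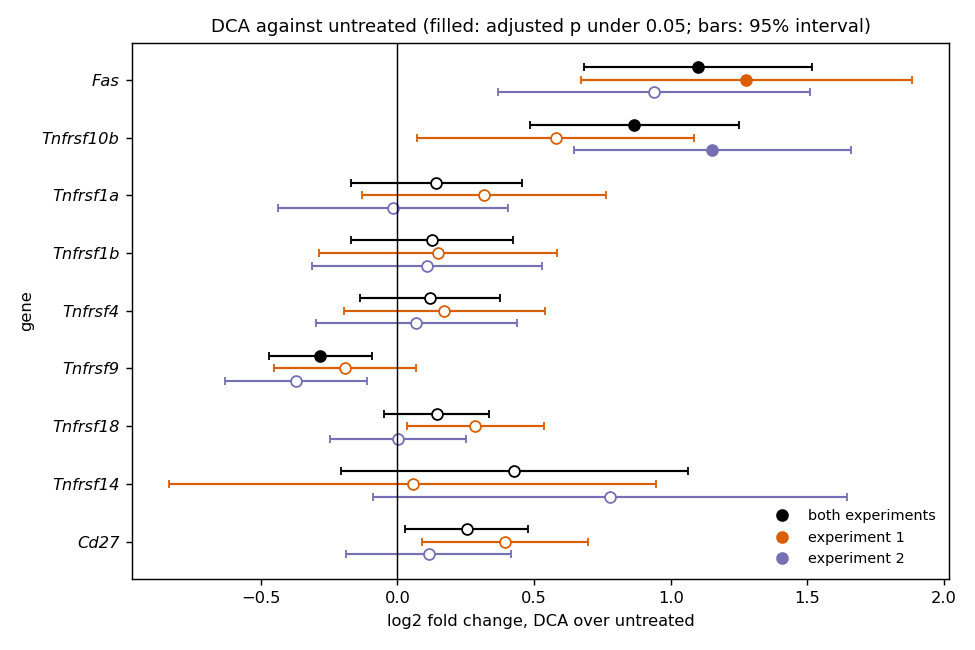
Log2 fold change of DCA against untreated cells for each receptor over both experiments and within each experiment, with 95% intervals from the edgeR fit. The intervals of Fas and Tnfrsf10b lie above 0 in all 3 comparisons, and that of Tnfrsf9 lies below 0 over both experiments and in experiment 2.

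Whether the DCA effect differed between the experiments was tested as a difference of the effects. None of the 9 members was called with edgeR (0 of 9, and 0 with an unadjusted p under 0.05), DESeq2 or limma-voom. With edgeR 0.331% of all genes were called, 52 in all (0.28% with a higher and 0.051% with a lower effect in experiment 2), and 2226 genes had an unadjusted p under 0.05. The number of genes called ran from 1 to 217 when 1 library was left out, and was 451 with DESeq2 and 566 without a filter. The difference, experiment 2 minus experiment 1, was -0.34 for Fas (95% interval -1.16 to 0.49) and 0.57 for Tnfrsf10b (95% interval -0.14 to 1.29). For Tnfrsf9 it was -0.18 (95% interval -0.55 to 0.19). The calls of Fas in experiment 1 alone and of Tnfrsf10b in experiment 2 alone are therefore not shown to differ. The intervals are too wide to show that the effects were alike.

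In untreated cells most of the 9 receptors had more transcript in experiment 2 than in experiment 1, with Fas, Tnfrsf1a, Tnfrsf1b and Tnfrsf9 higher in both arms. Strain, peptide, technical batch and experiment cannot be told apart here, and libraries of experiment 2 also detected more genes (23635 to 26571 against 18382 to 19551) and had a higher mitochondrial share. All 3 tested NK cell markers were called lower in experiment 2 in both arms. Klrb1c had means of 8.45 and 9.93 CPM in untreated and DCA cells of experiment 1 and 0.766 and 0.715 CPM in experiment 2. Klre1 had 8.70 and 6.79 CPM in experiment 1 and 0.898 and 0.510 CPM in experiment 2. The part of these shifts in the receptor differences was not tested. In untreated cells 6 of 9 members were higher in experiment 2 and 0 lower: Fas, Tnfrsf1a, Tnfrsf1b, Tnfrsf9, Tnfrsf18 and Cd27. Of all genes 51.8% were called in that comparison, 26.7% higher and 25.2% lower. The members' median log2 fold change was 0.61, against 0.11 over all genes, and cyclic loess scaling moved the median of all genes to -0.02. In DCA cells 4 of 9 were higher and 0 lower (Fas, Tnfrsf1a, Tnfrsf1b and Tnfrsf9), where 52.3% of all genes were called, 28.1% higher and 24.1% lower. Experiments did not overlap for 5 of 9 members in untreated cells (59.9% of all genes) and for 5 of 9 in DCA cells (61.5%).

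Fas was higher in experiment 2 by 1.80 (SE 0.28, adjusted p = 7.83e-05) in untreated and by 1.46 (SE 0.27, adjusted p = 0.000367) in DCA cells. Untreated cells of experiment 2, at 17.1 to 27.2 CPM, thus overlapped with or exceeded DCA cells of experiment 1, at 12.4 to 18.8 CPM. Tnfrsf1a was higher by 1.75 (SE 0.21, adjusted p = 4.72e-06) in untreated and by 1.41 in DCA cells, and no library of experiment 1 reached those of experiment 2. Tnfrsf1b was higher by 1.29 (SE 0.20, adjusted p = 7.96e-05) and 1.25. For Tnfrsf9 the log2 difference was 0.99 (SE 0.12, adjusted p = 6.85e-06) and 0.81, and with cyclic loess scaling 1.90 and 1.63. Cd27 was higher by 0.61 in untreated cells (SE 0.14, adjusted p = 0.00205), and in DCA cells the value was 0.33 (adjusted p = 0.06). Tnfrsf18 was higher by 0.36 in untreated cells (adjusted p = 0.0175) with overlapping groups, and without untreated replicate 1 or 2 of experiment 1 the adjusted p was 0.0873 and 0.0624. With cyclic loess scaling the Tnfrsf18 values were 0.94 in untreated and 0.55 in DCA cells.

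Tnfrsf10b passed the test in neither arm, with log2 differences between experiments of -0.31 in untreated cells (95% interval -0.82 to 0.20) and 0.26 in DCA cells (95% interval -0.24 to 0.76). Tnfrsf4 had values of 0.37 (adjusted p = 0.0895) and 0.26, neither past the threshold. It was called in 9 of 19 other settings in untreated and in 3 of 19 in DCA cells. Cyclic loess scaling was among them in both arms, with 0.94 and 0.75. Tnfrsf14 had values of 0.13 and 0.85, neither past the threshold.

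**Figure D5:**
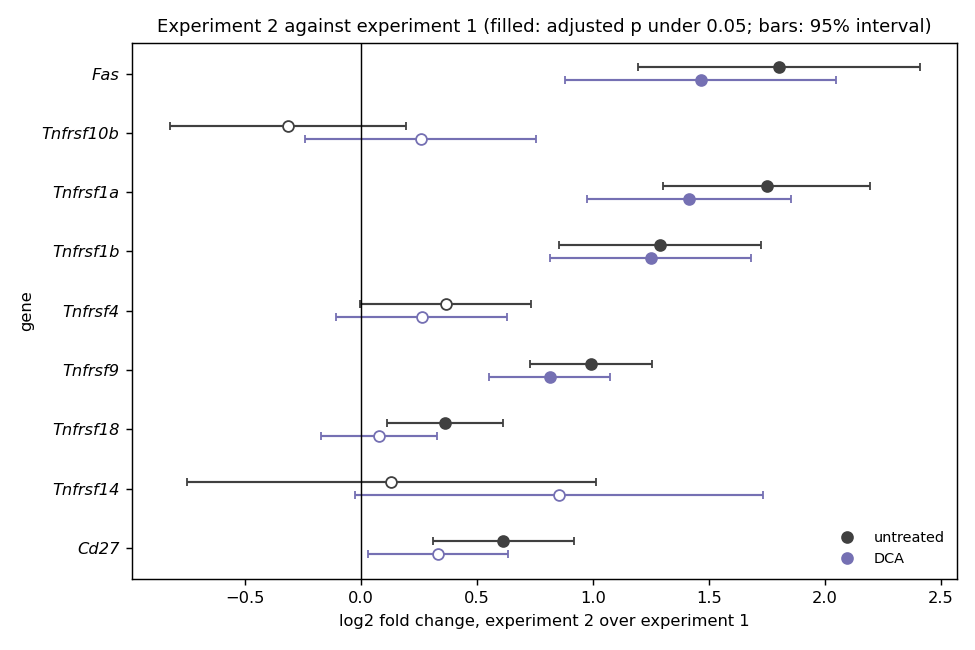
Log2 difference of experiment 2 against experiment 1 for each receptor, in untreated and in DCA cells, with 95% intervals from the edgeR fit. Fas, Tnfrsf1a, Tnfrsf1b and Tnfrsf9 lie above 0 in both arms, and Tnfrsf10b spans 0 in both.

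The ligands and partners of the 9 receptors were examined as a list of 11 genes, 9 of which could be tested. With DCA 3 rose, 1 fell and the median log2 fold change was -0.17, where 7.01% of all genes rose and 9.8% fell. Fasl, the ligand of Fas, fell by 0.65 (SE 0.06), from a mean of 204 to 151 CPM in experiment 1 and from 106 to 66.7 CPM in experiment 2, while its receptor rose. CPM means of genes outside the 9 members are scaled to total counts without TMM, unlike the log2 fold changes, so the 2 need not match. Tnfsf10, which encodes the ligand of Tnfrsf10b (TRAIL), had a log2 fold change of -0.57 (adjusted p = 0.104), and fell in experiment 1 (-0.95, adjusted p = 0.0413) with a value of -0.19 in experiment 2. Tnfsf9, the ligand of 4-1BB, rose by 0.33 (adjusted p = 0.0485), opposite in sign to its receptor. In experiment 1 Tnfsf9 rose by 0.52 (adjusted p = 0.0184), with means of 20.3 CPM without and 32.1 CPM with DCA. The means in experiment 2 were 16.2 and 18.5 CPM. The receptor was called within neither experiment (-0.19 and -0.37). Tnfsf4, the ligand of OX40, rose by 1.65 (adjusted p = 0.00695), and Btla, the inhibitory receptor that binds HVEM, rose by 1.85 (adjusted p = 0.000356). The values were -0.17 (adjusted p = 0.291) for Tnf and 0.08 (adjusted p = 0.791) for Lta, ligands of both TNF receptors, and -0.44 (adjusted p = 0.527) for Tnfsf14, which encodes LIGHT. The Lta value joins opposite effects, a fall in experiment 1 (-0.47, adjusted p = 0.00117) and a rise in experiment 2 (0.61, adjusted p = 0.000578). Cd160, a further receptor that binds HVEM, had a value of -0.27 (adjusted p = 0.136). Transcripts of the ligands of CD27 and GITR, Cd70 and Tnfsf18, were each at 0 in 9 of 12 libraries and were not tested.

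Of 12 death domain signalling genes, all tested, 0 rose and 3 fell (all genes, 9.8% lower), with a median log2 fold change of -0.13. The 3 were Mlkl (-0.45), the effector of necroptosis, Tradd (-0.32), the adaptor of Tnfrsf1a, and Faim (-0.17), an inhibitor of Fas-mediated death. Fadd, the adaptor of Fas and Tnfrsf10b, had a log2 fold change of -0.43 (adjusted p = 0.0529), Casp8 of -0.08 and Cflar, which encodes the caspase-8 inhibitor FLIP, of 0.17, none past the threshold. In experiment 1 alone 4 of the 12 fell (Mlkl, Tradd, Fadd by 0.74 and Bid by 0.75), against 11% of all genes. In experiment 2 none was called by edgeR (1 had an unadjusted p under 0.05), where 4.57% of all genes were. No gene of the list was called in the difference of the effects (4 with an unadjusted p under 0.05). None of 12 TRAF adaptors and partners was called by edgeR over both experiments (median 0.04), where 16.8% of all genes were. Of the 12, 1 had an unadjusted p under 0.05. In experiment 1, 2 of the 12 were called lower, Traf2 and Traf3ip2, against 11% of all genes, and 4 had an unadjusted p under 0.05. In the difference of the effects none was called and 4 had an unadjusted p under 0.05. Among 20 NF-kB factors and regulators 3 rose and 1 fell (median 0.02), against 7.01% and 9.8% of all genes. Those that rose were Map3k14, the kinase NIK (0.80), Map3k7, the kinase TAK1 (0.71), and Nfkb1 (0.20), and the inhibitor gene Nfkbib fell (-0.44). Of 3 tested receptor shedding genes, Rhbdf2 rose (0.39) and Adam17, the sheddase of TNF receptors, had a value of 0.13 (adjusted p = 0.312).

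Among 19 other TNF receptors 13 were tested, of which 2 rose and 1 fell (median 0.16), against 7.01% and 9.8% of all genes. Tnfrsf8 (CD30) rose by 1.31 (SE 0.19, adjusted p = 0.000472), from a mean of 4.50 to 11.2 CPM in experiment 1 and from 32.7 to 92.2 CPM in experiment 2. Eda2r, a receptor for ectodysplasin A2 and a known p53 target, was at 0 in untreated cells of experiment 1 and at a mean of 0.427 CPM with DCA, and at 0.272 and 2.12 CPM in experiment 2 (adjusted p = 0.0186). Tnfrsf11b (osteoprotegerin), a secreted decoy receptor, fell by 1.11 (adjusted p = 0.0278). Since Fas and Tnfrsf10b are known p53 targets, a list of 20 other p53 targets was read beside them: 11 rose and 0 fell (all genes, 7.01% higher), with a median log2 fold change of 0.61. In experiment 1, 7 rose and 1 fell (Aen, by 0.49), with a median of 0.36, against 5.67% and 11% of all genes. In experiment 2, 13 rose and 0 fell, with a median of 0.85, against 2.37% and 2.2% of all genes. The log2 fold change was higher in experiment 2 for 5 of the 20 by the test of the difference (Aen, Bax, Ccng1, Gtse1 and Phlda3), against 0.28% of all genes. The list holds Eda2r as well. Cdkn1a, the cell cycle inhibitor p21, rose by 0.82, and Zmat3 by 1.88, from 4.59 to 15.8 CPM and from 6.12 to 27.7 CPM. The list was chosen with earlier results of these libraries known, so its direction is not independent evidence. The part of p53 in the Fas and Tnfrsf10b values was not tested.

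The receptors' variation around the experiment means was compared over the 12 libraries, with libraries sharing depth and treatment arm, so these correlations are descriptions. Fas and Tnfrsf10b had r = 0.79, and Fas and Tnfrsf18 0.76. Tnfrsf1b and Tnfrsf9 ran opposite, with r = -0.58. Among 7912 candidate genes (average log2 CPM 3 or above), the 2 most like Fas were Ttc3 (r = 0.98) and Lxn (r = 0.98), and among 7913 candidates those most like Tnfrsf10b were Sirt4 (r = 0.93) and Cmtm3 (r = 0.92). Those most like Tnfrsf9 were Rab3d (r = 0.89) and Rprd2 (r = 0.88). Those most like Tnfrsf4 were Gpr141 (r = 0.93) and Bpgm (r = 0.89), and those most like Cd27 were Supt4a (r = 0.91) and Tbxa2r (r = 0.90). Those most like Tnfrsf1a were AY036118 (r = 0.96) and 9930111J21Rik2 (r = 0.93). For Tnfrsf1b they were Zzz3 (r = 0.90) and Tmem229b (r = 0.86). For Tnfrsf18 they were H2-Ab1 (r = 0.90) and Ptms (r = 0.90), and for Tnfrsf14 Pitpnc1 (r = 0.94) and Tbc1d17 (r = 0.89).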

How the data were processed

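RNA was sequenced from CD8+ T cells of 6 mice, each in both arms (12 libraries). The authors deposited whole-number read counts per gene, without normalization. The tools in the submitters' processing notes are STAR 2.7.10a, fastp 0.23.2 and edgeR 3.36.0, with build GRCm39. How reads were counted, with which annotation and strand setting, is not given in the sources here, and overlapping genes cannot be separated. The authors' deposited comparison table holds log2 fold changes, log2 CPM and, per the file headers, false discovery rates beside p-values. Its gene lengths gave RPKM.

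The quasi-likelihood test of edgeR 4.0.16 (R 4.3.3) was run on counts scaled by TMM, for the 15688 genes that filterByExpr kept given the 4 groups, with a Benjamini-Hochberg adjusted p under 0.05 as a call. DCA over both experiments was fitted with a term for experiment, and the other 5 comparisons came from 1 fit of 4 group means, so comparisons share libraries. The SE is the absolute log2 fold change over the square root of F. The main fits hold no term for mouse, so their p-values rest on the spread between mice, as labelled, within an arm. They do not measure the spread of the DCA response between mice, for which the term per mouse was fitted as an alternative. Replicates of a group differed by more than sampling noise (chi-square per degree of freedom 10.9 to 29.9). Libraries are paired by mouse by design: correlations of deviations from group means were 0.0443 to 0.0834 within the 6 pairs and -0.0689 to -0.00438 between mice. Deviations within a group sum to 0, so positive values within pairs pull those between mice below 0. These ranges are therefore not separate signs of pairing. Alternatives were other scalings (including cyclic loess with limma 3.58.1), limma-voom, DESeq2 1.42.0, other filters, a term per mouse and leaving out each library. The scripts were tested on simulated data. The rule for named genes took all 9 members, their ligands, the called gene of smallest adjusted p in each direction of the 7 pathway lists, and the 2 genes most like a member by correlation over libraries centred within experiment. Other list genes were named after their values were seen. Members and lists were chosen with earlier results of these data known.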

Additional observations from a re-analysis of the deposited data

Results flagged for a closer look

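Lta, which encodes lymphotoxin alpha, a ligand of both TNF receptors, differed between the experiments in its response to DCA (edgeR, difference 1.08 on the log2 scale, experiment 2 minus experiment 1, SE 0.11, adjusted p = 0.00119). Its log2 fold change with DCA was -0.47 (SE 0.08, adjusted p = 0.00117) in experiment 1 and 0.61 (SE 0.08, adjusted p = 0.000578) in experiment 2. Over both experiments the value was 0.08 (adjusted p = 0.791).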

How the results depend on the processing

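Of 1047 single-receptor values under the alternatives, 959 kept their direction and side of the threshold, 21 lost a call, 40 gained one and 27 changed sign, none of the last being called. For DCA over both experiments, Fas and Tnfrsf10b were called under each alternative except a fit without the experiment term, where 0 of 9 receptors and 46 genes in all were called. Their adjusted p was then 0.549 and 0.089, and that of Tnfrsf9 was 0.888. Tnfrsf9 was also lost with a filter of 5 CPM in 3 libraries (-0.24, adjusted p = 0.0654). Within experiment 1, 3 receptors were called with cyclic loess, without a filter and with the 5 CPM filter (Fas, Tnfrsf18 and Cd27), 2 with DESeq2 and 2 with the term per mouse (replicate block) (Fas and Cd27), and 1 to 2 when 1 library was left out. Of all genes, 1167 were higher and 1767 lower there without a filter, and 1153 and 1219 with the 5 CPM filter. The numbers were 1248 and 1994 with DESeq2 and 825 and 1524 with the term per mouse, against 889 and 1733 in the main analysis. Within experiment 2, 3 were called with limma-voom, DESeq2, no filter and only the libraries of that experiment, 2 with the 5 CPM filter, and 0 to 3 when 1 library was left out. The 3 were Fas, Tnfrsf10b and Tnfrsf9. Of all genes, 657 were higher and 514 lower in experiment 2 with limma-voom, and 617 and 895 with DESeq2. The numbers were 663 and 453 without a filter, 896 and 668 with only those libraries and 460 and 483 with the 5 CPM filter. In the main analysis they were 372 and 345. Between experiments in DCA cells, 7 were called with cyclic loess, where 4104 of all genes were higher and 4243 lower (4414 and 3784 in the main analysis). The cause of these changes was not tested. The replicate block changed no call other than those of Tnfrsf9 over both experiments and Cd27 in experiment 1. It could not be fitted between experiments, since mice are nested in them. Signs changed with cyclic loess for Tnfrsf9 (0.029) and Tnfrsf14 (-0.060) with DCA in experiment 1, for Tnfrsf14 in untreated cells (-0.11) and Tnfrsf10b in DCA cells (-0.023) between experiments. They also changed for Tnfrsf18 with DCA in experiment 2 (-0.025 with RLE factors and with DESeq2), and for Tnfrsf1b in the difference of effects (0.013 with limma-voom). Leaving out 1 library gave ranges across 0. With DCA in experiment 1 these were -0.067 to 0.28 for Tnfrsf4 and -0.24 to 0.41 for Tnfrsf14. In experiment 2 they were -0.15 to 0.053 for Tnfrsf1a, -0.14 to 0.22 for Tnfrsf1b, -0.071 to 0.15 for Tnfrsf4, -0.13 to 0.067 for Tnfrsf18 and -0.073 to 0.16 for Cd27. In the difference of effects they were -0.34 to 0.10 for Tnfrsf1b and -0.30 to 0.14 for Tnfrsf4, and between experiments in untreated cells -0.16 to 0.49 for Tnfrsf14. Tnfrsf14, with as few as 16 counts in a library, has the widest intervals and was not tested under the 5 CPM filter. Cyclic loess gave 1069 genes higher and 1027 lower in experiment 1 (889 and 1733 in the main analysis) and 391 and 216 in experiment 2 (372 and 345).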
